A study of Canis lupus familiaris with 4 samples.

Results

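The integrin and laminin subunit genes were examined in 4 canine glioblastoma lines. The members were the 35 genes, of 15115 genes with a symbol on the array, whose probe sets carried a single symbol of the form ITGA, ITGB, LAMA, LAMB or LAMC with a subunit number or letter. They comprised 17 integrin alpha genes, 8 integrin beta genes and 10 laminin chain genes (4 alpha, 4 beta and 2 gamma). Together they had 92 probe sets, and 22 of the genes had more than 1. The brightest probe set, by the mean over the 4 arrays, stood for its gene. ITGAD and LAMA2 had no probe set of their own symbol and were not analysed here.

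Integrins are cell surface receptors made of an alpha and a beta subunit, which pair before they reach the membrane and link the matrix outside the cell to actin inside it. The alpha subunit largely sets the ligand: collagen, laminin, or proteins that carry the RGD peptide such as fibronectin and vitronectin. Laminins are secreted trimers of an alpha, a beta and a gamma chain that form the sheet of every basement membrane, and in the brain they surround the blood vessels along which glioma cells can migrate. A trimer is named by the numbers of its chains, so that laminin-311 holds LAMA3, LAMB1 and LAMC1.

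J3T-1 and J3T-2 were derived from the same parental canine glioblastoma cells, J3T. The paper describes J3T-1 as high and J3T-2 as low in annexin A2, whereas the labels give only subclone names. J3T-1shA is J3T-1 with annexin A2 (ANXA2) knocked down by a short hairpin RNA, whereas ANXA2 was overexpressed in J3T-2 to give J3T-2A. The labels list each of the 4 lines as a subclone, and whether any grew from a single cell is not given in the sources used here. All were grown in serum-containing medium (DMEM). Gene expression was profiled on Affymetrix canine arrays, 1 for each line. There were no replicates, so no difference could be tested, and ratios describe these 4 RNA samples. The array table names no genome build, and no genomic positions are given.

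The ANXA2 signal, at 28656 to 30103 by its brightest probe set, did not separate the lines by the ANXA2 state that the paper describes. It was slightly brighter on the array labelled J3T-1shA (30093) than on that labelled J3T-1 (28656). A second probe set, about as bright, read 24127.5 in J3T-1, 25725 in J3T-1shA, 30311 in J3T-2 and 35651 in J3T-2A. It was brighter in J3T-2A than in J3T-2, as overexpression implies, but again brighter in J3T-1shA than in J3T-1, and lowest in J3T-1. The ANXA2 signal thus does not check the labels, and lines are named throughout as their arrays were labelled. Trimmed means of the arrays were 495.8 to 496.0 and medians 101.8 to 106.5, in MAS 5.0 signal units on a linear scale. A signal of 250 was taken as the limit for a gene to count as measured. It was reached by 42.9% to 43.7% of genes per array. A signal under the limit does not show absence of the transcript: the probe set of ACTB, the gene of cytoplasmic actin, read 48.7 to 96.7. Of 9 glioma and astrocyte markers on the array, VIM, CD44, SOX2 and SLC1A3 were at the limit on all 4 arrays, whereas GFAP, S100B and EGFR were under it on all of them. Of 8 leukocyte markers, C1QA alone reached the limit, and PTPRC, the defining leukocyte surface phosphatase, read 11.5 to 35.1. Of 2 platelet, 5 endothelial and 4 epithelial markers on the array, 1 of each reached the limit.

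Of the 35 members, 16 reached the limit on at least 1 array, against 47.9% of all genes. They were 8 alpha subunits, 4 beta subunits and 4 laminin chains. Each array held 14 of them at the limit, and 11 were at the limit on all 4. The other 19 members were under the limit on every array, with signals from 1.4 to 195.0. These were ITGA10 and ITGA11, which bind collagen, ITGA4, ITGA8 and ITGA9, the platelet subunit ITGA2B, the leukocyte subunits ITGAL, ITGAM, ITGAX and ITGB2, the beta subunits ITGB4, ITGB6 and ITGB8, and the laminin chains LAMA1, LAMA4, LAMA5, LAMB3, LAMB4 and LAMC3. ITGB4, the hemidesmosome partner of ITGA6, read 150.1 to 195.0. The highest signal was over 2 times the lowest for 9 of the 16 members, against 16.8% of all genes at the limit on at least 1 array. Genes that reach the limit on only some arrays enter this count partly through their bright arrays. Among the 11 members at the limit on every array the count was 5 (ITGA2, ITGA5, ITGA6, ITGB7 and LAMB1), against 10.1% of genes of the same kind. J3T-1shA stood at an end of the range for 6 of the 9 (66.7%), which is close to the 67.5% found over the 1220 genes that differed as much. It was the highest for ITGA1 and ITGA6 and the lowest for ITGA2, ITGA3, ITGA7 and LAMB1.

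**Figure D1:**
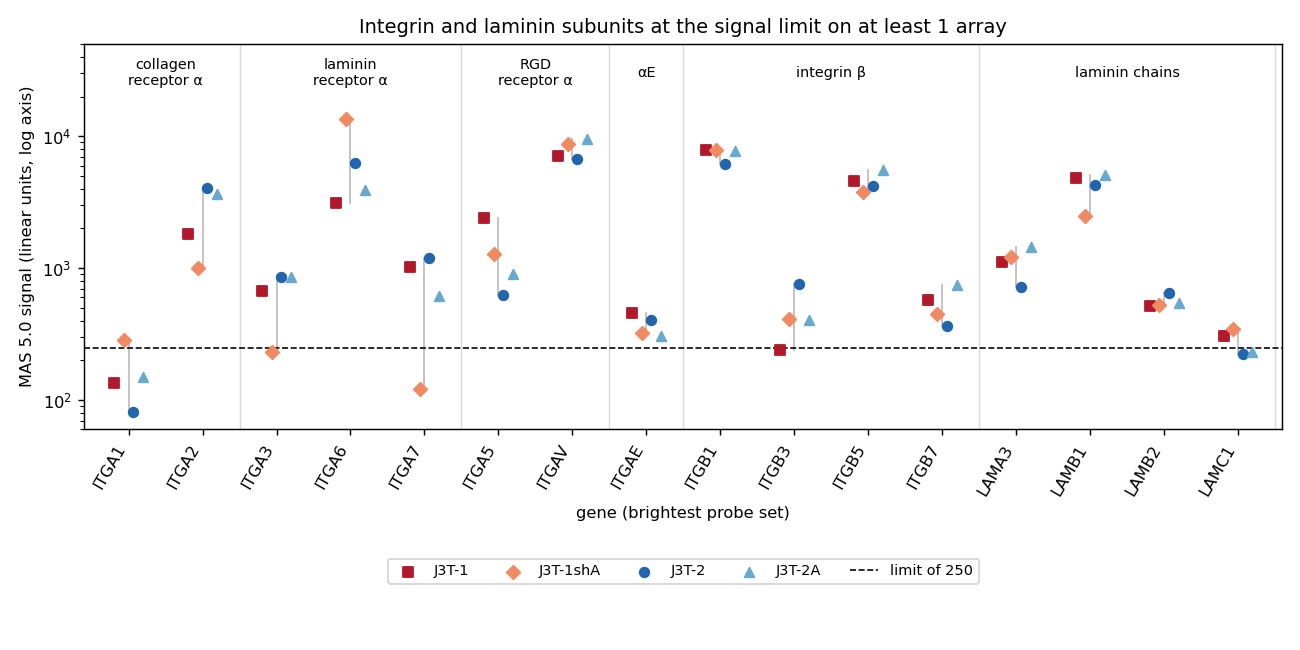
MAS 5.0 signal (y axis, log scale) of the 16 integrin and laminin genes at the limit on at least 1 array (x axis, brightest probe set per gene, grouped by role), with 1 point per cell line and a grey line from the lowest to the highest. The dashed line is the limit of 250. ITGB1, ITGAV and ITGB5 lie close together in all 4 lines, whereas the point of J3T-1shA is the highest for ITGA6 and the lowest for ITGA2, ITGA3, ITGA7 and LAMB1.

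Every line had the transcripts of 6 integrin heterodimers at the limit. ITGB1, the beta subunit shared by most matrix receptors, had signals of 7853 in J3T-1, 7901 in J3T-1shA, 6135 in J3T-2 and 7773 in J3T-2A. These lay within 1.29-fold of each other. ITGAV, the alpha subunit of the vitronectin receptors, read 7139, 8702, 6751 and 9526 in the same order, and ITGB5, one of its partners, read 4556, 3808, 4194 and 5565. Both stayed within 1.46-fold. The shared set was thus ITGA2, ITGA5, ITGA6 and ITGAV with ITGB1, ITGAV with ITGB5, and ITGAE with ITGB7. Of 24 known heterodimers, 23 of which had both genes on the array, 8 had both subunits at the limit in J3T-1, 8 in J3T-1shA, 9 in J3T-2 and 9 in J3T-2A, and 10 did in at least 1 line. These counts describe transcripts, and the array does not show which subunits pair or reach the membrane.

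The heterodimers at the limit in some lines only were ITGA1, ITGA3 and ITGA7 with ITGB1, and ITGAV with ITGB3. ITGA3-ITGB1 and ITGA7-ITGB1 were missing from J3T-1shA alone, ITGAV-ITGB3 was missing from J3T-1 alone, and ITGA1-ITGB1 was present in J3T-1shA alone. ITGA1, ITGA3 and ITGB3 lay close to the limit in the line that set them apart. ITGA1 read 285.0 in J3T-1shA, just over the limit. ITGA3 read 229.8 in J3T-1shA and ITGB3 read 238.3 in J3T-1, both just under it. At 0.5 times the limit ITGA1-ITGB1 was also counted in J3T-1 and J3T-2A, ITGAV-ITGB3 in J3T-1 and ITGA3-ITGB1 in J3T-1shA, while ITGA7-ITGB1 was still missing from J3T-1shA. That limit also added ITGA6-ITGB4 in all 4 lines, ITGA2B-ITGB3 in J3T-1, J3T-1shA and J3T-2, and ITGA11-ITGB1 in J3T-2A, for 12 heterodimers in J3T-1, 11 in J3T-1shA, 11 in J3T-2 and 12 in J3T-2A.

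**Figure D2:**
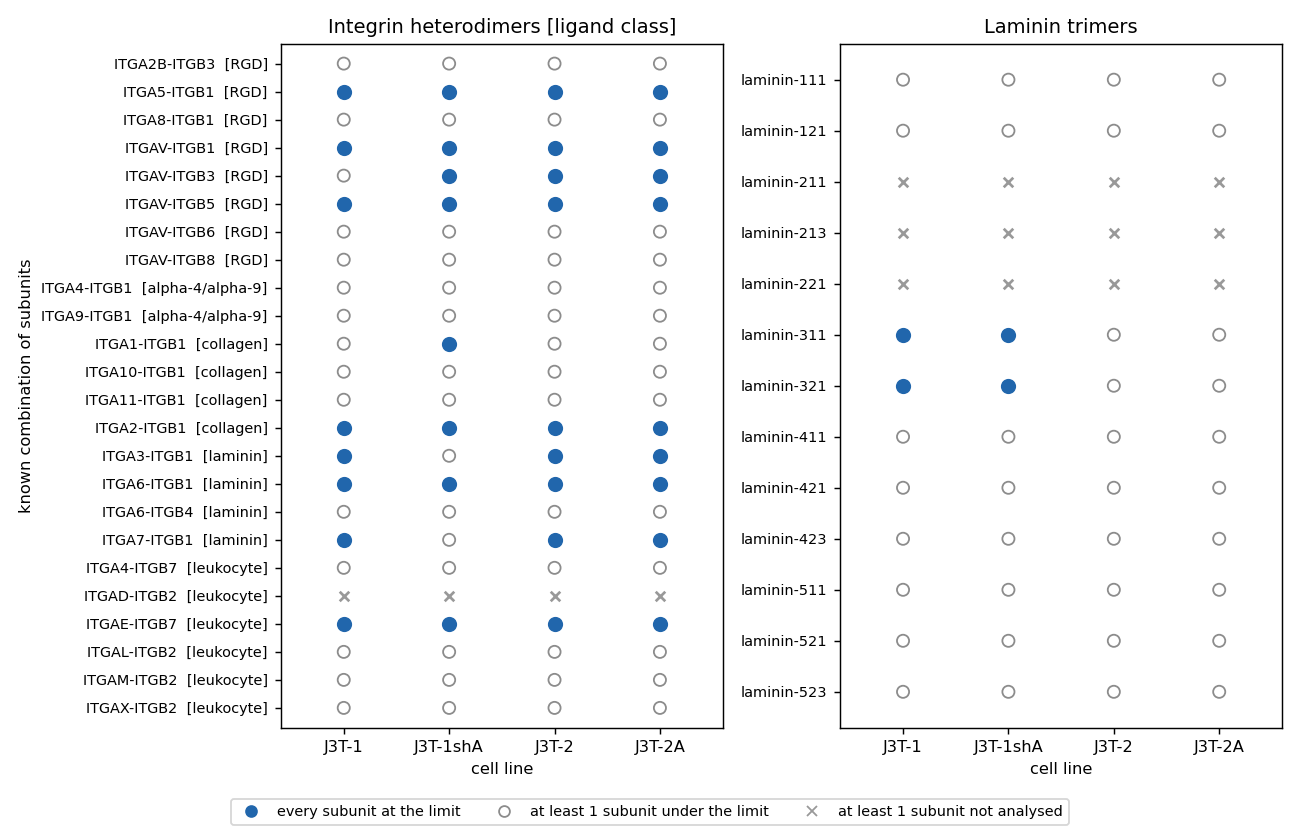
Known integrin heterodimers (left, with the ligand class in brackets) and laminin trimers (right) in each cell line (x axis). A filled circle marks a combination with every subunit at a signal of 250 or more, an open circle one with at least 1 subunit under it, and a cross one with a subunit not analysed; 6 heterodimers are filled in all 4 lines, and laminin-311 and laminin-321 in J3T-1 and J3T-1shA.

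The 3 alpha subunits of laminin receptors at the limit, ITGA3, ITGA6 and ITGA7, spanned 3.72-fold to 9.83-fold over the lines, and the array labelled J3T-1shA lay at one end for each. ITGA6, which binds most laminins, had a signal of 3098 in J3T-1, 13494 in J3T-1shA, 6240.4 in J3T-2 and 3927 in J3T-2A. J3T-1shA was the highest and J3T-1 the lowest, a 4.36-fold difference between both. ITGA7, a laminin receptor best known from skeletal muscle, ran the other way: it read 1020.5 in J3T-1, 120.7 in J3T-1shA, 1187 in J3T-2 and 620.5 in J3T-2A. The array labelled J3T-1shA was the only one under the limit. The signal in J3T-1 was 8.45-fold that in J3T-1shA, and at least 4.08-fold higher when the dim array was set to the limit. ITGA3, a receptor for laminins with the LAMA3 and LAMA5 chains, read 670.0, 229.8, 855.8 and 854.3 in J3T-1, in J3T-1shA, in J3T-2 and in J3T-2A. It was again lowest on the array labelled J3T-1shA, which was just under the limit, and J3T-1 was 2.92-fold higher, or at least 2.68-fold against the limit. J3T-2 and J3T-2A were level.

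The other probe sets of these genes mostly ran in parallel. ITGA6 had 3 further probe sets at the limit. The second read 1538, 7148, 2976 and 1872 in J3T-1, in J3T-1shA, in J3T-2 and in J3T-2A, and the third 516.7, 2528, 945.0 and 704.9, both with the same order of lines as the brightest. For J3T-1 against J3T-1shA these probe sets were lower in J3T-1 by 4.65-fold and 4.89-fold. The last was flat, at 322.4 to 374.5, and gave 1.08-fold in the opposite direction. Which transcripts of ITGA6 the probe sets read was not tested. ITGA7 had 1 further probe set at the limit, with 291.9 in J3T-1, 84.0 in J3T-1shA, 277.1 in J3T-2 and 177.2 in J3T-2A. It was 3.47-fold higher in J3T-1 than in J3T-1shA. ITGA3 had a single probe set.

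**Figure D3:**
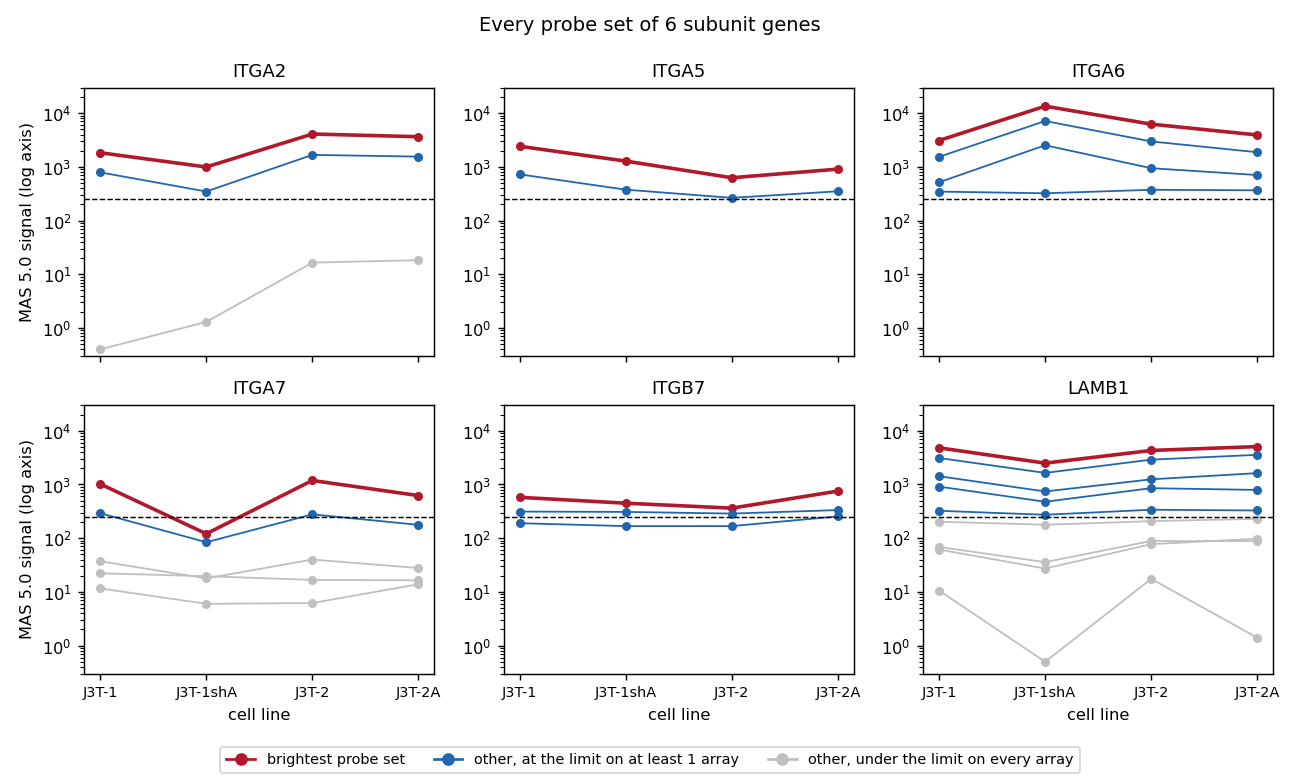
MAS 5.0 signal (y axis, log scale) of every probe set of ITGA2, ITGA5, ITGA6, ITGA7, ITGB7 and LAMB1 in the 4 cell lines (x axis), with the brightest in red, others at the limit on at least 1 array in blue and those under it on every array in grey. The dashed line is the limit of 250. In ITGA6 the 3 brightest probe sets peak in J3T-1shA and the dimmest is flat, and in ITGB7 the 2 dimmer probe sets are flatter than the brightest.

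Among collagen receptors, ITGA2 was brighter in the lines of J3T-2 origin. ITGA2, the collagen receptor of platelets and epithelia, read 1832 in J3T-1, 995.7 in J3T-1shA, 4088 in J3T-2 and 3645 in J3T-2A. Both J3T-2 and J3T-2A thus lay over both lines of J3T-1 origin, and the highest signal was 4.11-fold the lowest. Its second probe set read 790.9, 347.7, 1672 and 1553, in the same order of lines. ITGA1, a collagen receptor common in mesenchymal cells, read 135.2, 285.0, 80.9 and 149.3 in J3T-1, in J3T-1shA, in J3T-2 and in J3T-2A. It reached the limit on 1 array, so its 2.11-fold difference between J3T-1shA and J3T-1 is at least 1.14-fold when the dim array is set to the limit.

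ITGA5, the main fibronectin receptor subunit, had the opposite order to ITGA2 between the parental lines. It read 2418 in J3T-1, 1282 in J3T-1shA, 627.7 in J3T-2 and 908.4 in J3T-2A. Both lines of J3T-1 origin were brighter than both lines of J3T-2 origin, and J3T-1 was 3.85-fold over J3T-2. The second probe set read 726.1, 376.5, 265.2 and 351.2, with J3T-1 2.74-fold over J3T-2. Within each origin the line that the paper describes as having more ANXA2 was the brighter, though within 2-fold. J3T-1 was 1.89-fold over J3T-1shA, and J3T-2A was 1.45-fold over J3T-2. FN1, which encodes the ligand fibronectin, was bright and within 2-fold throughout, at 24537, 20091, 22233 and 26217 in J3T-1, in J3T-1shA, in J3T-2 and in J3T-2A.

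ITGB3, the partner of ITGAV in the classical vitronectin receptor, was brightest in J3T-2. Its single probe set read 238.3 in J3T-1, 415.5 in J3T-1shA, 753.6 in J3T-2 and 405.0 in J3T-2A. J3T-1 was 3.16-fold lower than J3T-2, or at least 3.01-fold lower against the limit. Within both origins the line that the paper describes as having more ANXA2 was the dimmer, though not past 2-fold. The difference was 1.86-fold for J3T-2A against J3T-2 and 1.74-fold for J3T-1 against J3T-1shA. ITGB7, a beta subunit known from lymphocytes, read 576.3, 448.0, 362.3 and 752.5 in J3T-1, in J3T-1shA, in J3T-2 and in J3T-2A. The 2.08-fold difference between J3T-2A and J3T-2 rested on this probe set, since the other probe sets at the limit gave 1.16-fold and 1.52-fold. ITGAE, its partner on lymphocytes of epithelia, read 461.3, 322.7, 406.5 and 304.7, while its remaining probe sets were under the limit on every array.

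The 4 laminin chains at the limit spanned 1.24-fold to 2.03-fold over the lines, and none was over 2-fold different in any of the 3 comparisons. LAMA3, the alpha chain of epithelial laminins, had a signal of 1106 in J3T-1, 1206 in J3T-1shA, 724.1 in J3T-2 and 1440.0 in J3T-2A. J3T-2 was the lowest, and J3T-2A was 1.99-fold over it, just inside the 2-fold bound. The second LAMA3 probe set read 325.3, 345.2, 197.7 and 304.5, with J3T-2 again the lowest. LAMB1, the most widely used beta chain, read 4807 in J3T-1, 2494 in J3T-1shA, 4299.5 in J3T-2 and 5067 in J3T-2A. The array labelled J3T-1shA was the lowest, 1.93-fold under J3T-1 and 2.03-fold under J3T-2A, while the remaining arrays were close to each other. The next probe sets of LAMB1 also had J3T-1shA lowest, with 1639.6 against 3109 in J3T-1 in one and 739.6 against 1424 in another. LAMB2 read 520.2, 527.2, 647.1 and 544.5 in J3T-1, in J3T-1shA, in J3T-2 and in J3T-2A, within 1.24-fold.

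The laminin trimers with all chains at the limit were laminin-311 and laminin-321, in J3T-1 and J3T-1shA, of 13 known trimers that were considered, 10 of them with every chain on the array. They differ in the beta chain, LAMB1 or LAMB2. LAMC1, the gamma chain of most laminins, set this split. It read 309.1 in J3T-1, 344.6 in J3T-1shA, 225.8 in J3T-2 and 232.3 in J3T-2A, which straddles the limit within a range of 1.53-fold. At 0.5 times the limit both trimers were counted in all 4 lines. LAMA3 was the only one of the 4 alpha chains analysed that reached the limit in any line, and LAMA2, the alpha chain of muscle and nerve laminin, was not analysed here.

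Signals were divided between J3T-2A and J3T-2, between J3T-1 and its knockdown line, and between the parental lines J3T-1 and J3T-2, to ask what differs with ANXA2 state and with origin. The J3T-1 array enters 2 of these comparisons and the J3T-2 array 2, so they are not independent. J3T-1 and J3T-2 differ in both origin and described ANXA2 state, which cannot be told apart here. No array is labelled as a control vector or hairpin, so effects of making J3T-1shA and J3T-2A cannot be told apart from ANXA2 state. A gene entered a comparison where the brighter array reached 250, and counted as different at a ratio over 2. Where a second probe set of a gene also reached the limit, its log2 ratio differed from that of the brightest with an SD of 0.29 (3718 genes) between J3T-2A and J3T-2, 0.37 (3769 genes) between J3T-1 and J3T-1shA, and 0.37 (3764 genes) between the parental lines. This spread is between probe sets of a gene and is not a replicate error. It can include differences in the transcripts that the probe sets read, and it leaves out variation between cultures. In each comparison, fewer cells with a transcript and less of it per cell cannot be told apart.

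Between J3T-2A and J3T-2, 1 of 14 measured members (ITGB7) was over 2-fold higher, against 1.69% of 6860 genes, and none was over 2-fold lower, against 2.10%. LAMA3 (log2 ratio 0.99), ITGA7 (-0.94) and ITGB3 (-0.90) came close to 2-fold. The members' median log2 ratio was 0.12 and that of all genes -0.003. The median size of the log2 ratio, whatever its sign, was 0.46 for the members and 0.20 for all genes. Of 5 measured glioma and astrocyte markers, 1 was just over 2-fold higher in J3T-2A and 0 lower, against 1.69% and 2.10% of all genes. It was SLC1A3, at 3999 against 1996. The endothelial marker PECAM1 and the epithelial keratin KRT8 were dimmer in J3T-2A than in J3T-2, at 161.0 against 773.2 and 288.0 against 1076. Each was the only marker of its list at the limit. The summed signal was 303.2 against 1007 for the 5 endothelial markers and 394.8 against 1128 for the 4 epithelial ones. PECAM1 and KRT8 gave most of these sums. Of the markers under the limit, KRT18, EPCAM, CDH1 and KDR were brighter in J3T-2A, whereas CDH5, TEK and VWF were dimmer. The part of all these markers in the integrin and laminin differences was not tested.

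Between J3T-1 and J3T-1shA, 2 of 16 measured members were over 2-fold higher in J3T-1 (ITGA3 and ITGA7), against 3.80% of 6944 genes, and 2 were over 2-fold lower (ITGA1 and ITGA6), against 4.26%. All 4 are alpha subunits that pair with ITGB1, whose own log2 ratio was -0.01. LAMB1 (0.95), ITGA5 (0.92) and ITGA2 (0.88) lay just within 2-fold. The median log2 ratio was 0.12 for the members and 0.03 for all genes, and the median size was 0.66 and 0.30. Of 5 measured glioma and astrocyte markers, 2 were over 2-fold lower in J3T-1 and 0 higher, against 4.26% and 3.80% of all genes. NES read 150.2 in J3T-1, under the limit, against 345.9 in J3T-1shA, and SLC1A3 2422 against 5505.5. The smooth muscle markers ACTA2 and CNN1 also differed between these arrays, at 562.2 against 13625 and 318.4 against 1494. They were 2 of 6 muscle and pericyte markers at the limit, and the summed signal of the 6 was 1111 in J3T-1 and 15231 in J3T-1shA. ACTA2 gave most of the sum in J3T-1shA. Of the muscle and pericyte markers under the limit, DES, MYH11 and PDGFRB were brighter in J3T-1 and RGS5 in J3T-1shA. The part of all these markers in the integrin differences was not tested.

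Between J3T-1 and J3T-2, 1 of 15 measured members was over 2-fold higher in J3T-1 (ITGA5), against 2.94% of 6967 genes, and 3 were over 2-fold lower (ITGA2, ITGA6 and ITGB3), against 4.05%. ITGA6 was at the bound, 2.01-fold lower, and its other probe sets at the limit were lower by 1.08-fold to 1.94-fold. It fell within 2-fold with a pseudocount of 80 (log2 ratio -0.99), with the median of its probe sets (-0.93) and with median centring (-0.97). ITGA3, ITGA7, ITGAV, ITGB1 and ITGB5 had log2 ratios from -0.35 to 0.36. The members' median was 0.12 against 0.03 for all genes, with a median size of 0.36 against 0.29. The endothelial marker PECAM1 was brighter on the array labelled J3T-2 (773.2 against 37.0), while CDH5, TEK, KDR and VWF were under the limit on all arrays. The summed signal of these 5 markers was 1007 in J3T-2 and 206.0 in J3T-1. KRT8 was also brighter in J3T-2 (1076 against 435.4), as was PDGFRA, of the glioma list (352.7 against 88.9). ACTA2 (562.2 against 24.9) and the leukocyte marker C1QA (661.5 against 317.4) were brighter in J3T-1. Summed signals in J3T-1 and J3T-2 were 523.4 and 1128 for the 4 epithelial markers, 1111 and 457.4 for the 6 muscle and pericyte markers, and 1118 and 811.8 for the 8 leukocyte markers. KRT8, ACTA2 and C1QA gave most of the differences between these sums. Under the limit, some markers ran against them. KRT18 and CDH1 were brighter in J3T-1, and DES, RGS5, CD68, CSF1R and AIF1 in J3T-2. The part of these markers in the integrin differences was not tested.

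**Figure D4:**
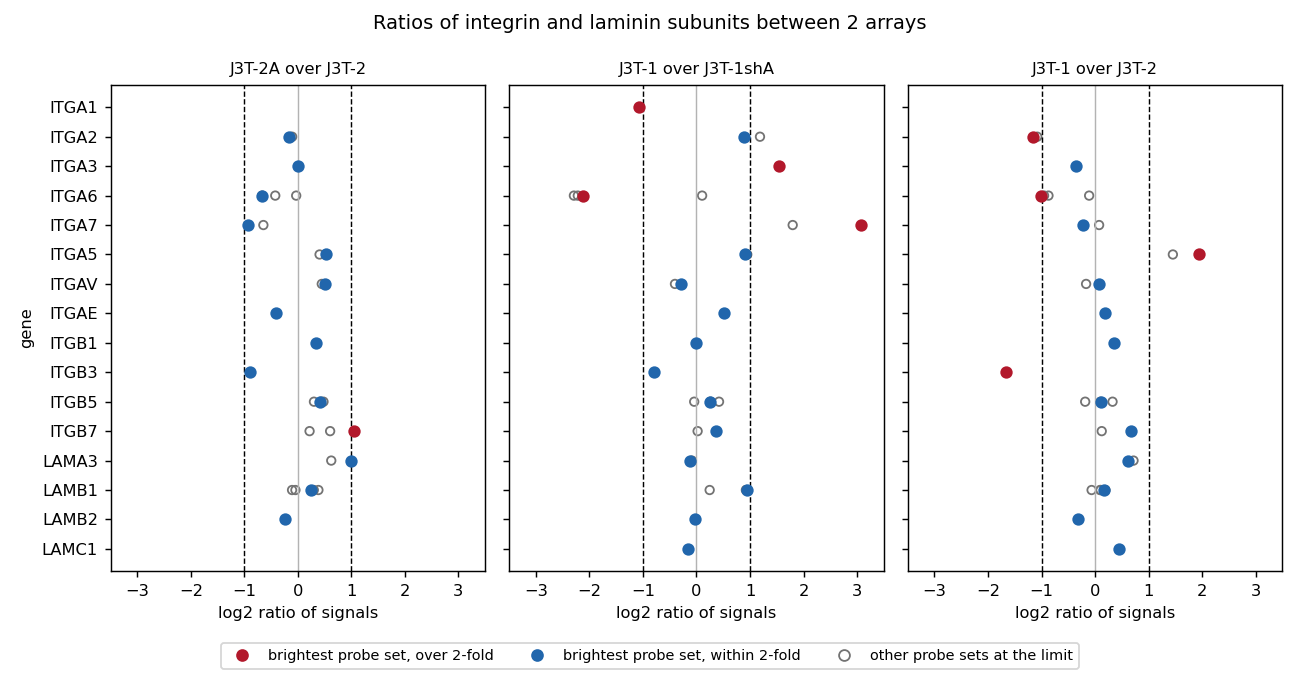
Log2 ratio of the signals (x axis) of the 16 genes (y axis) in 3 panels, J3T-2A over J3T-2 (left), J3T-1 over J3T-1shA (middle) and J3T-1 over J3T-2 (right), 1 array per line. Filled points are the brightest probe sets, in red where over 2-fold (dashed lines) and in blue within it, and open circles are other probe sets of the gene at the limit; the points spread widest for J3T-1 over J3T-1shA, from -2.12 for ITGA6 to 3.08 for ITGA7.

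Of 28 integrin adaptor and focal adhesion genes on the array, which couple integrins to actin, 17 were measured between J3T-2A and J3T-2, and 20 between J3T-1 and J3T-1shA. None was past 2-fold, which in lists of this size is near the shares over all genes, 1.69% higher and 2.10% lower in the former comparison and 3.80% and 4.26% in the latter. TLN1, encoding talin, which activates integrins, read 2176 in J3T-1, 2436 in J3T-1shA, 1707 in J3T-2 and 1841 in J3T-2A. FERMT2, encoding the co-activator kindlin-2, read 4258, 6045, 5991 and 4277, and ILK, encoding integrin-linked kinase, 1007, 1197, 1150.3 and 1012. For J3T-1 over J3T-2, 3 of 19 were over 2-fold higher and 0 lower, against 2.94% and 4.05% of all genes. ZYX, encoding the stress fibre protein zyxin, read 940.9 against 328.8, whereas TLN2 (2.01-fold) and PARVB were under the limit in J3T-2.

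Among genes that share the basement membrane with laminin, 6 of 19 on the array were measured. HSPG2, encoding perlecan, was within 2-fold in all 3 comparisons, at 2286 to 2908, and the laminin linkers NID1 and NID2 were under the limit on every array. COL4A1, a chain of the collagen network, was 2.13-fold lower in J3T-1 (2817) than in J3T-1shA (5994), and FBLN1, encoding fibulin-1, was 3.53-fold lower in J3T-1 (711.4) than in J3T-2 (2509.7). Each was 1 of 6, against 4.26% and 4.05% of all genes. Of other laminin receptors and partners, DAG1, which encodes dystroglycan, read 1499.5 in J3T-1, 1604 in J3T-1shA, 1112 in J3T-2 and 1092 in J3T-2A. CD151, a tetraspanin that binds laminin receptors, was within 2-fold in all 3 comparisons. The tetraspanin gene CD9 was 2.23-fold higher in J3T-1 than in J3T-1shA, and the syndecan gene SDC2 was higher in J3T-2A and in J3T-1 than in J3T-2, by 3.09-fold and 4.03-fold. SDC1 read 128.4 in J3T-1 and 480.8 in J3T-1shA, and the sarcoglycan gene SGCA was 2.25-fold lower in J3T-1 than in J3T-2. In this list of receptors and partners, 1 of 16 was over 2-fold higher and 0 lower for J3T-2A over J3T-2. The shares of all genes were 1.69% and 2.10%. For J3T-1 over J3T-1shA the counts were 1 and 1 of 17, against 3.80% and 4.26%. For J3T-1 over J3T-2 they were 1 and 1 of 16, against 2.94% and 4.05%.

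Several genes of integrin ligands were over 2-fold different in each comparison. This list was chosen with earlier results of these data known, so its counts against all genes are descriptive only. For J3T-2A over J3T-2, 6 of 19 measured ligand genes were higher by over 2-fold and 0 were lower by as much, against 1.69% and 2.10% of all genes, with a median log2 ratio of 0.74. The 6 were TNC, THBS1, COL1A1, EDIL3, CCN1 and CCN2. For J3T-1 over J3T-1shA, 2 of 19 were higher and 7 lower, against 3.80% and 4.26% of all genes, with a median of -0.46. TNC and COL6A1 were the higher ones, and COL1A1, COL5A1, FBN1, EDIL3, CCN2, TGFBI and ADAM9 the lower. For J3T-1 over J3T-2, TNC, THBS1, COL6A1, CCN1 and CCN2 were higher and VCAM1 was lower, 5 and 1 of 20 against 2.94% and 4.05% of all genes, with a median of 0.20. EDIL3, an RGD protein that binds ITGAV receptors, read 447.3 in J3T-1, 1162 in J3T-1shA, 254.4 in J3T-2 and 643.5 in J3T-2A. VCAM1, the ligand of ITGA4-ITGB1, was at the limit only in J3T-2 (317.6) and J3T-2A (558.3), while ITGA4 itself read 10.1 to 23.0 in the 4 lines. ADAM9, a disintegrin protease, was 2.12-fold lower in J3T-1 than in J3T-1shA. VTN, SPP1, NPNT and POSTN, whose proteins bind RGD receptors, were under the limit on every array.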

How the data were processed

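Total RNA from each line was labelled and hybridized to a GeneChip Canine Genome 2.0 array, 1 array per line. The authors summarized probe sets to the deposited signal intensity with the default options of MAS 5.0, and scaled each array globally to a common trimmed mean. The paper states a target of 100, and the deposited columns had trimmed means close to 5 times that (2% left out at each end), so a limit of 50 on the stated scale became 250. The deposited table holds linear intensities of 42924 probe sets and no detection calls. Of these, 29254 had 1 gene symbol, 439 several and 13231 none listed. Of the 92 member probe sets, 85 were found again by Entrez identifier in RefSeq and 0 changed symbol. Python 3.11.15, pandas 2.3.3 and NumPy 2.4.6 were used.

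Ratios of 2 arrays were taken with no pseudocount. With 1 array per line no test was made and no p-value is given; precision is limited by that number. The ratio script was tested on simulated data. Members, gene lists, comparisons and alternatives were chosen with earlier results of these data known. Members at the limit were named by their 4 signals, the others by range, and genes of related lists where over 2-fold; other genes of these lists named within 2-fold or under the limit were chosen after their values were seen. The alternatives were other signal limits, no limit, a pseudocount of 80, the median of a gene's probe sets, any probe set at the limit, quantile normalization and median centring. No genome or sequence was used.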

Additional observations from a re-analysis of the deposited data

Results flagged for a closer look

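ITGA7 moved in opposite directions in the 2 comparisons by described ANXA2 state. Its log2 ratio was -0.94 for J3T-2A over J3T-2 and 3.08 for J3T-1 over J3T-1shA. Its second probe set at the limit gave -0.65 and 1.80. ITGAE also differed in direction, with -0.42 for J3T-2A over J3T-2 and 0.52 for J3T-1 over J3T-1shA, both within 2-fold. Its other probe sets, under the limit on every array, had the opposite signs. They gave 0.34 and 2.19 for J3T-2A over J3T-2, and -0.70 and -0.49 for J3T-1 over J3T-1shA. ITGA7 and ITGAE were listed because both ratios of the brightest probe set exceeded the SD between probe sets and had opposite signs. With 1 array per line neither difference was tested.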

How the results depend on the processing

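No paired analysis was possible because, with 1 array per line, no replicate numbers pair them. The difference by described ANXA2 state within each origin is given side by side, and a fit over both origins was not run. Of 127 log2 ratios of the 8 named members under the alternatives, 124 moved by less than the SD between probe sets, 0 changed sign past 2-fold, and 3 moved further: ITGA7 for J3T-1 over J3T-1shA was 2.46 with a pseudocount of 80, and ITGB7 was 0.22 for J3T-2A over J3T-2 and 0.12 for J3T-1 over J3T-2 with the median of its probe sets. The members higher by over 2-fold in J3T-2A than in J3T-2 numbered 3 with no signal limit, 0 with a pseudocount of 80, 0 with the median of the probe sets and 2 with median centring, which added LAMA3, and those lower numbered 4 with no limit. For J3T-1 over J3T-1shA, 6 were higher with no limit, and 1 was lower at a limit of 500 and 1 with a pseudocount of 80, ITGA6 in both cases. With the median of the probe sets, ITGA7 fell under the limit and ITGA2 was over 2-fold higher. For J3T-1 over J3T-2, 5 were higher with no limit, and ITGA6 was no longer over 2-fold lower with a pseudocount of 80, the median of the probe sets or median centring, which left 2 of 3. The genes added without a limit were under 250 on all arrays. The median log2 ratio of the members for J3T-2A over J3T-2 was 0.24 at a limit of 500 and 0.041 with no limit, and for J3T-1 over J3T-1shA 0.31 and 0.26. With the median of the probe sets, 4 integrin heterodimers were counted in each of the 4 lines, because dim probe sets took ITGAV, ITGAE and ITGA7 under the limit, and at a limit of 500 there were 5 in J3T-1shA. Laminin trimers numbered 0 in J3T-1 and 0 in J3T-1shA at a limit of 500, 0 in each with the median of the probe sets, and 2 in J3T-2 and 2 in J3T-2A at 0.5 times the limit. The other settings moved no count by over 1.5 times.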

Other observations

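The transcripts of the lymphocyte integrin ITGAE-ITGB7 were at the limit in all 4 lines, although 7 of 8 leukocyte markers and ITGAL, ITGAM, ITGAX and ITGB2 were under it in every line. For ITGAE this rested on 1 probe set, at 304.7 to 461.3, and its other probe sets were under the limit on every array. At a limit of 500, and with the median of the probe sets, the pair was counted in no line. The third probe set of LAMA3 and the second of ITGB1 were under the limit on every array, at 9.8 to 14.8 and 54.9 to 170.2, although the brightest probe set of each gene was over it on all 4.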
